A study of Mus musculus with 76 samples.

Results

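NRF2 target genes are genes of antioxidant and detoxifying metabolism that the transcription factor NRF2 switches on. The 10 genes described here, of 55536 in the count table, were chosen by symbol as widely used NRF2 targets: *Nqo1*, *Hmox1*, *Gclc*, *Gclm*, *Txnrd1*, *Srxn1*, *Slc7a11*, *G6pdx*, *Blvrb* and *Me1*. In unstressed cells KEAP1 holds NRF2 (gene *Nfe2l2*) and hands it to a CUL3 and RBX1 ubiquitin ligase for degradation. Oxidants and electrophiles modify cysteines of KEAP1, so that NRF2 accumulates, pairs with a small MAF protein and binds antioxidant response elements near its targets, where BACH1 acts as a repressor. In tumors the pathway is known for supplying glutathione, reduced thioredoxin and NADPH, and hydrogen peroxide, the substrate of catalase, is among the oxidants that act on it.

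The study asked whether catalase placed in tumors changes their gene expression, with bulk RNA sequencing of whole tumors grown from CT26, a colon carcinoma line, and 4T1, a mammary carcinoma line, both from BALB/c mice. Extracellular catalase (EC CAT) was CAT-ABP, catalase joined to a peptide that binds alum, injected into the tumor together with alum. Intracellular catalase (IC CAT) was human catalase expressed by the tumor cells from a gene that doxycycline (DOX) switches on. The libraries came from a method that reads transcripts near the 3′ end, so a count stands for reads near the end of a transcript, and a gene named as the highest of a list is so by its CPM alone. The mice were female BALB/c, 6 to 12 weeks of age, and all groups shared alum at 100 µg, injection on day 6 after inoculation and harvest on day 8, by the labels; the paper instead gives 7 and 9 as these days. CT26 tumors received 20 µg CAT-ABP with alum (n = 6) or alum alone (n = 5), as did 4T1 tumors (n = 6 and n = 5), without DOX. Mice with 4T1-CAT tumors, of which 5 were given CAT-ABP with alum and 5 only alum, and the 6 mice with 4T1-control tumors, all given alum, ate a DOX diet from day 4 by the labels, and from day 5 by the paper. 4T1-CAT and 4T1-control cells were made by lentiviral transduction with an inducible vector, selected with puromycin and, after DOX, sorted by GFP; the supplement describes no cloning step. 4T1-control cells express GFP only. CT26 tumors were started from 1000000 cells and the 4T1-derived ones from 500000, so tumor line and cell number cannot be told apart.

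Each of the 38 tumors was sequenced as 2 technical libraries, whose counts were added. Tumor totals ran from 493044 to 9077549 counts, with a median of 4827387.5. By group the medians were 5977654.5 in CT26 with CAT-ABP + alum, 5002683 in CT26 with alum, 4980961 in 4T1 with CAT-ABP + alum, 4074219 in 4T1 with alum, 5339033 in 4T1-CAT with CAT-ABP + alum, 4998358 in 4T1-CAT with alum and 3523254 in 4T1-control. The shallowest tumors, replicate 2 of 4T1-control (493044 counts) and replicate 4 of 4T1 with CAT-ABP + alum (837403), carry few counts for single genes: *Me1* rests on 2 counts in that 4T1 tumor, and *Slc7a11* on 0 in that 4T1-control tumor. There, 0 of 493044 counts allows a level up to 3 counts. Levels are given in CPM, counts per 1000000 of the scaled library size. No label names a sequencing pool. Pools were inferred from the first part of the index tag, an assumption on which every value with the pool as a block or within a pool pair rests. By it the libraries fall into 2 pool pairs: all CT26 tumors, all 4T1 tumors with CAT-ABP + alum and 2 of the 5 4T1 tumors with alum were in the first, and all other tumors in the second.

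Markers were checked against the labelled lines. The 7 epithelial markers summed to 2415 ± 409 CPM (SD, n = 5) in 4T1 tumors with alum, with *Krt18* the highest, and to 57.7 ± 17.3 CPM (n = 5) in CT26 tumors with alum, where *Krt7* was the highest and *Cldn7* was at 0. Of 5 colon epithelial markers, *Krt20* was present in CT26 (106 ± 34.5 CPM with alum) and near absent in 4T1 (1.34 ± 0.866 CPM), while *Cdx1* was at 0 in every group and *Vil1* at 0 in CT26 with alum. In CT26 tumors the other 6 epithelial markers were thus present at low levels, and of the colon markers *Krt20* stood almost alone.

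All 10 members passed the filter on low counts in every comparison. In CT26 against 4T1 with alum, which asks how the lines differ before any catalase, 7 of the 10 members differed in edgeR at an adjusted p of at most 0.05, 6 of them higher in CT26 and 1 lower. Of all 12817 genes tested, 42.4% differed, 21.3% higher and 21.1% lower. The CPM of the groups did not overlap for 5 members, against 29.9% of all genes, and 7 members were under an unadjusted p of 0.05, against 50.2%. The median log2 fold change was 0.41 over the members and 0.02 over all genes tested. In CT26 against 4T1 with CAT-ABP, which uses other tumors of the same lines, 3 members differed, all higher in CT26, against 45.5% of 13016 genes, 21.8% higher and 23.7% lower. The groups did not overlap for 2 members, against 22.3% of all genes, and 4 members were under an unadjusted p of 0.05, against 52.1%. The median was 0.24 over the members and -0.02 over all genes. DESeq2 called 4 members with CAT-ABP. Whether the share of members differs from that of all genes was not tested under either treatment.

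**Figure D1:**
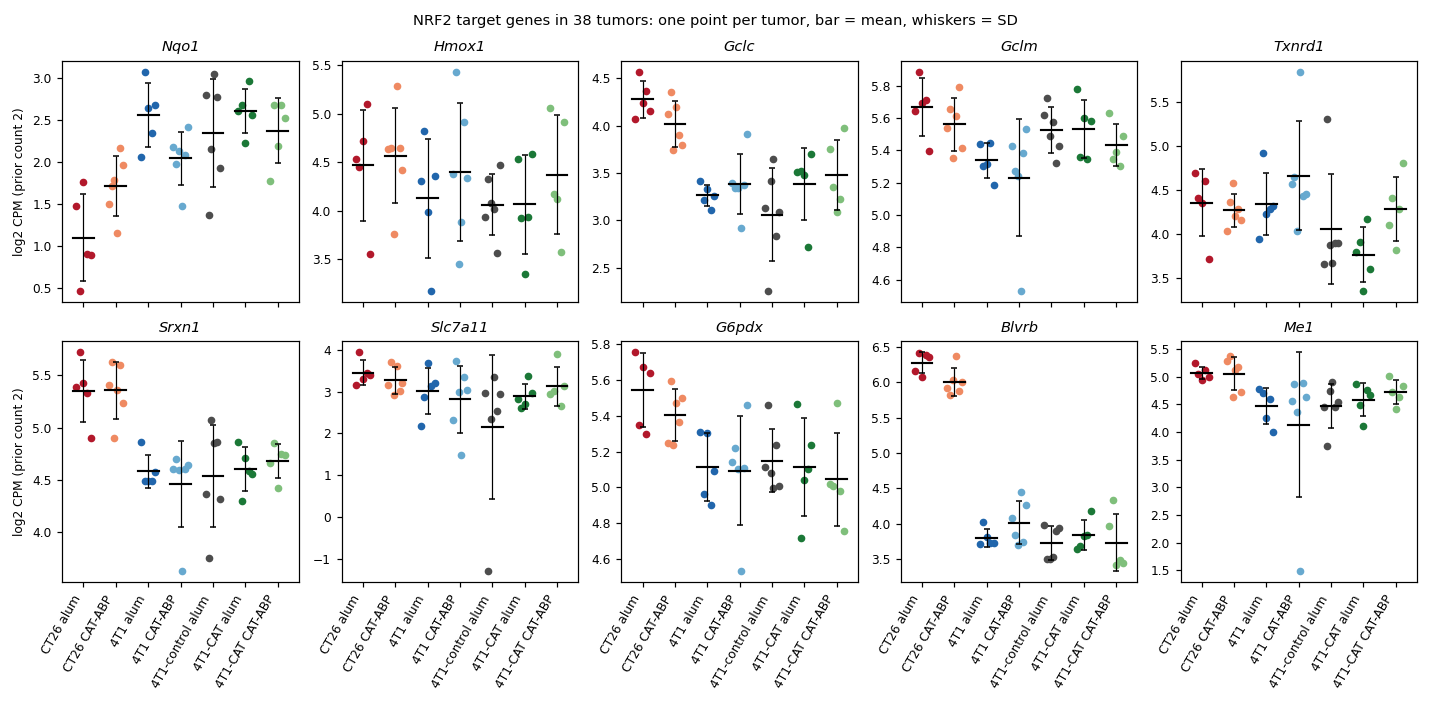
Level of each of the 10 members (log2 CPM with a prior count of 2, vertical axis) in the 7 groups of tumors (horizontal axis), 1 point per tumor, with the group mean as a bar and the SD as whiskers. *Blvrb* and *Srxn1* stand higher in both CT26 groups, and the lowest points of *Me1* and *Slc7a11* are the 2 tumors under 1000000 counts.

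**Figure D2:**
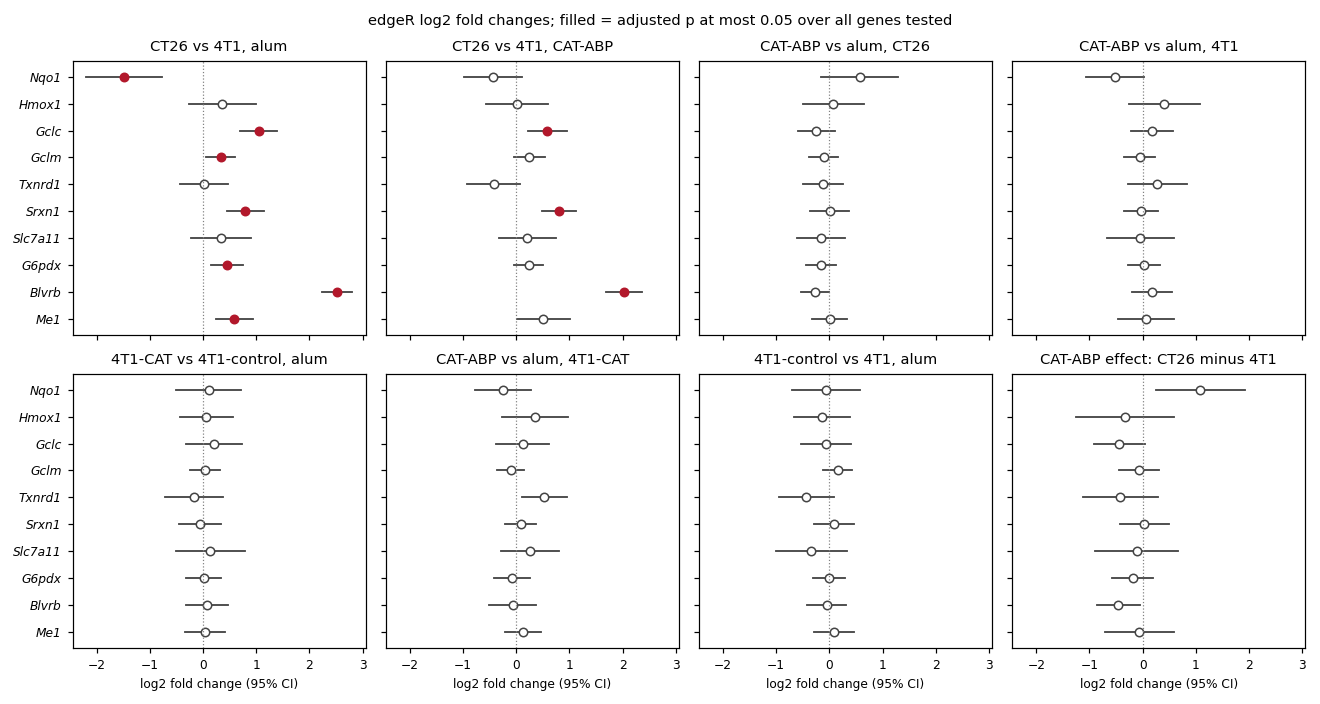
Log2 fold change of each member (horizontal axis) with its 95% confidence interval in 8 comparisons, 1 panel each. Filled points have an adjusted p of at most 0.05 over all genes tested and are found in the panels of CT26 against 4T1 alone, 7 with alum and 3 with CAT-ABP.

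Among the genes of heme breakdown and quinone reduction, *Blvrb* was far higher and *Nqo1* lower in CT26. *Blvrb* (ENSMUSG00000040466, chr7:27447978-27466144, plus strand, GRCm38) encodes biliverdin reductase B, an enzyme that reduces flavins and heme-derived pigments with NADPH. In CT26 tumors with alum it was at 71.3, 85.1, 66.9, 83.8 and 81.4 CPM in replicates 1 to 5 (mean 77.7 ± 8.11 SD), and in 4T1 tumors with alum at 12.6, 15.8, 13.6, 12.8 and 12.8 CPM (13.5 ± 1.33). With CAT-ABP + alum the lowest, median and highest CT26 tumors had 56.4, 61.8 and 82.3 CPM (64.4 ± 9.37, n = 6) and the 4T1 tumors 12.5, 15.2 and 21.5 CPM (16.0 ± 3.57, n = 6). All 11 CT26 tumors lay above all 27 tumors of 4T1 origin, with a wide gap between them. *Blvrb* in CT26 against 4T1 with alum had a log2 fold change of 2.52 (SE 0.13, adjusted p = 1.53e-09, higher in 5 of 5), a 5.73-fold difference, and with CAT-ABP 2.03 (SE 0.16, adjusted p = 1.04e-08, higher in 6 of 6). With the sequencing pool as a block the alum value was 2.44 (adjusted p = 9.16e-07), and the CAT-ABP comparison lies within a single pool pair.

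*Nqo1* (ENSMUSG00000003849, chr8:107388225-107403206, minus strand) encodes the quinone oxidoreductase NQO1, often used as a readout of NRF2. It was among the weakly covered members, with 2 to 22 counts per CT26 tumor with alum. Those 5 tumors were at 2.37, 0.973, 3.00, 1.46 and 1.45 CPM (1.85 ± 0.817), and the 4T1 tumors with alum at 3.75, 8.04, 5.82, 4.66 and 6.01 CPM (5.66 ± 1.62). Every CT26 tumor lay below every 4T1 tumor, and *Nqo1* in CT26 against 4T1 with alum had a log2 fold change of -1.49 (SE 0.34, adjusted p = 0.00231), and -1.57 with the pool as a block (adjusted p = 0.0157). With CAT-ABP the groups overlapped, with lowest, median and highest values of 1.81, 2.96 and 4.08 CPM in CT26 and 2.39, 3.91 and 4.96 CPM in 4T1. There the log2 fold change was -0.43 (95% CI -0.98 to 0.11, adjusted p = 0.185), and by library totals it was -0.71 and past the threshold (adjusted p = 0.0460). The change of the line difference with CAT-ABP was tested as an interaction, given below with the catalase comparisons.

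*Hmox1* (ENSMUSG00000005413, chr8:75093621-75100589, plus strand) encodes heme oxygenase 1, which opens heme into biliverdin, iron and carbon monoxide. CT26 tumors with alum were at 22.7, 21.4, 26.0, 34.0 and 11.3 CPM (23.1 ± 8.19) and 4T1 tumors with alum at 19.4, 27.9, 15.5, 8.61 and 20.1 CPM (18.3 ± 7.04). The groups overlapped over most of their range, with the highest level in CT26 replicate 4 and the lowest in 4T1 replicate 4. The log2 fold change of CT26 over 4T1 was 0.37 with alum (95% CI -0.27 to 1.00, adjusted p = 0.344), and it ran from -0.04 with the pool as a block to 0.39 in the alternatives and from 0.15 to 0.57 in leave-one-out fits. With CAT-ABP it was 0.02 (95% CI -0.57 to 0.60, adjusted p = 0.969), and it lay below 0 in 4 alternatives, down to -0.27 by library totals, and in 5 leave-one-out fits, down to -0.15.

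Macrophages break down heme, and some of their markers differed between the lines. Of 10 macrophage markers, 2 were higher in CT26 with alum (*Adgre1* and *Cd68*), against 21.3% of all genes, and 5 with CAT-ABP, against 21.8%, where *Cd14*, *C1qb* and *C1qc* joined them; the list summed to 1156 ± 128 CPM (range 1025 to 1332) in CT26 with alum against 838 ± 76.1 (734 to 917) in 4T1 with alum, and to 1196 ± 124 against 759 ± 104 with CAT-ABP, with *Cd68* the highest. Of 7 erythroid markers, 4 were tested and 2, *Hba-a1* and *Hba-a2*, were higher in CT26 with alum; in edgeR none of the 4 passed the threshold with CAT-ABP, with 0 under an unadjusted p of 0.05. The erythroid list summed to 148 ± 31.4 CPM in CT26 with alum and 93.7 ± 42.9 in 4T1 with alum, with *Hbb-bs* the highest. All 4 tested T cell markers were higher in CT26 under both treatments, with a sum of 67.9 ± 22.4 against 12 ± 2.56 CPM with alum and *Cd3d* the highest in CT26. The part of these cells in the member levels was not tested, and in bulk RNA fewer cells of a type and less RNA per cell cannot be told apart.

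Markers of other cells are given beside the 42.4% of all genes that differed with alum and the 45.5% with CAT-ABP. Of 5 tested neutrophil markers, *Csf3r* was higher in CT26 with alum, and *Csf3r* and *Retnlg* with CAT-ABP, while 4 and 3 had a log2 fold change below 0 (medians -0.42 and -0.23); the list, with *Cxcr2* the highest, summed to 76.6 ± 16.7 and 103 ± 27.4 CPM in CT26 and to 82.4 ± 16.0 and 114 ± 25.9 CPM in 4T1. Of 7 fibroblast markers, *Dcn* was higher and 4 were lower in CT26 under both treatments, *Col1a1*, *Col3a1*, *Lum* and *Pdgfra*; the list summed to 1903 ± 496 CPM in CT26 with alum and 2595 ± 206 in 4T1 with alum. Of 6 endothelial markers, *Emcn* was lower with alum, and *Emcn* and *Cdh5* with CAT-ABP; the sums were 116 ± 34.3 CPM in CT26 with alum and 136 ± 9.73 in 4T1 with alum. *Fabp4*, the 1 adipocyte marker tested, was higher in CT26 under both treatments. Of 5 skeletal muscle markers, *Myh4* was higher with alum and *Tnnt3* lower with CAT-ABP, with *Acta1* the highest. All 6 tested epithelial markers were lower and *Krt20* was higher in CT26. Their part in the results on the members was not tested.

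Glutathione synthesis is represented by the cystine importer and by both subunits of the enzyme that joins glutamate to cysteine. *Gclc* (ENSMUSG00000032350, chr9:77754535-77794485, plus strand) encodes the catalytic subunit of that enzyme, glutamate-cysteine ligase, and was higher in CT26. CT26 tumors with alum had 16.4, 23.4, 18.5, 20.2 and 17.4 CPM (19.2 ± 2.74), and 4T1 tumors with alum 10.2, 8.91, 9.64, 8.25 and 9.14 CPM (9.24 ± 0.752). The lowest CT26 tumor, replicate 1, lay above the highest 4T1 tumor, also replicate 1. *Gclc* in CT26 against 4T1 with alum had a log2 fold change of 1.05 (SE 0.17, adjusted p = 0.000121, higher in 5 of 5), and 0.99 with the pool as a block (adjusted p = 0.00665). With CAT-ABP the lowest, median and highest values were 13, 15.8 and 20.0 CPM in CT26 and 7.16, 9.85 and 14.7 CPM in 4T1. These overlapped, since 3 of the 6 CT26 tumors were above the highest 4T1 tumor, replicate 6. This gave a log2 fold change of 0.58 (SE 0.18, adjusted p = 0.0119); scaled by library totals without TMM it was 0.32 (adjusted p = 0.261), and in single technical libraries it was 0.62 and 0.37, past the threshold in neither.

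*Gclm* (ENSMUSG00000028124, chr3:122245557-122270732, plus strand) encodes the modifier subunit of the ligase, which raises its affinity for glutamate. It was at 49.6, 58.9, 51.5, 52.1 and 41.7 CPM in CT26 with alum (50.8 ± 6.16) and at 43.0, 39.1, 39.5, 43.3 and 36.1 CPM in 4T1 with alum (40.2 ± 3.01). In CT26, 4 of the 5 tumors lay above all 4T1 tumors, and replicate 5 lay among them. The log2 fold change of 0.33 (SE 0.13, adjusted p = 0.0466) was just past the threshold, and the call was lost when any tumor other than CT26 replicate 5 was left out, with values from 0.28 to 0.35 and adjusted p up to 0.107. It was also lost with the pool as a block (0.30, adjusted p = 0.211), with library totals (0.11, adjusted p = 0.678), with no filter (0.31), with the replicate block (0.33) and in either technical library alone (0.32 and 0.34). With CAT-ABP the log2 fold change was 0.25 (95% CI -0.04 to 0.53, adjusted p = 0.156). The gene overlaps the antisense transcript *Gm17494*, which held 90876 counts over all libraries against 8327 for *Gclm*, and the pseudogene *Gm6061* on its own strand with 2676 counts, so the assignment of reads to *Gclm* is uncertain. Whether reads were counted by strand is not given in the sources used here.

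*Slc7a11* (ENSMUSG00000027737, chr3:49892526-50443614, minus strand) encodes the cystine and glutamate exchanger xCT and did not pass the threshold between the lines. CT26 tumors with alum were at 8.50, 15.1, 9.53, 10.5 and 10.1 CPM (10.8 ± 2.54) and 4T1 tumors with alum at 4.09, 6.90, 12.4, 8.37 and 8.88 CPM (8.12 ± 3.02). The 4T1 values spanned the wider range, and replicate 2 of CT26 alone lay above them all. Its log2 fold change was 0.34 with alum (95% CI -0.22 to 0.90, adjusted p = 0.314) and 0.20 with CAT-ABP (95% CI -0.33 to 0.74, adjusted p = 0.543), which does not show that the levels were equal. The alum value ran from 0.14 by library totals (adjusted p = 0.733) to 0.92 with the pool as a block (adjusted p = 0.0545), and from 0.19 without 4T1 replicate 1 to 0.54 without 4T1 replicate 3. With CAT-ABP it ran from -0.07 by library totals to 0.37 in technical library 2 alone, and from 0.08 without 4T1 replicate 1 to 0.43 without 4T1 replicate 2.

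In the thioredoxin system, *Srxn1* was higher in CT26 and *Txnrd1* did not pass the threshold. *Srxn1* (ENSMUSG00000032802, chr2:152105516-152111376, plus strand) encodes sulfiredoxin, which repairs peroxiredoxins that hydrogen peroxide has over-oxidized. CT26 tumors with alum had 41.5, 52.5, 42.5, 39.8 and 29.4 CPM (41.1 ± 8.24), and 4T1 tumors with alum 28.7, 22.1, 22, 22 and 23.5 CPM (23.7 ± 2.87). With CAT-ABP the lowest, median and highest values were 29.4, 41.3 and 49.1 CPM in CT26 and 11.9, 23.9 and 25.6 CPM in 4T1. The groups were apart under both treatments, narrowly with alum, where CT26 replicate 5 and 4T1 replicate 1 lay next to each other. *Srxn1* in CT26 against 4T1 with alum had a log2 fold change of 0.80 (SE 0.16, adjusted p = 0.000944, higher in 5 of 5), and with CAT-ABP 0.81 (SE 0.15, adjusted p = 0.000371, higher in 6 of 6). With the pool as a block the alum value was 0.69 (adjusted p = 0.0313).

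*Txnrd1* (ENSMUSG00000020250, chr10:82833951-82897712, plus strand) encodes cytosolic thioredoxin reductase, which passes electrons from NADPH to thioredoxin. It was at 25.5, 20.9, 20.0, 24.0 and 12.8 CPM in CT26 with alum and at 15, 29.9, 18.4, 19.1 and 19.6 CPM in 4T1 with alum. The ranges lay nearly on top of each other, with means of 20.6 ± 4.93 and 20.4 ± 5.60 CPM. Its log2 fold change was 0.02 with alum (95% CI -0.44 to 0.47, adjusted p = 0.955) and -0.42 with CAT-ABP (95% CI -0.92 to 0.08, adjusted p = 0.161), and with CAT-ABP it was -0.71 by library totals without TMM (adjusted p = 0.0191) and -0.18 without the shallow 4T1 replicate 4 (adjusted p = 0.328), where *Txnrd1* stood at 57.3 CPM.

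*G6pdx* and *Me1* make NADPH, the reductant that the other enzymes draw on. *Me1* (ENSMUSG00000032418, chr9:86581371-86695953, minus strand) encodes cytosolic malic enzyme, which forms NADPH while turning malate into pyruvate. It was at 37.4, 32.6, 30.4, 34.3 and 31.6 CPM in CT26 with alum (33.2 ± 2.71) and at 27, 25.6, 18.6, 23.9 and 15.7 CPM in 4T1 with alum (22.1 ± 4.82). All CT26 tumors lay above all 4T1 tumors, and the log2 fold change was 0.59 (SE 0.16, adjusted p = 0.0087). The call was lost with the pool as a block (0.34, adjusted p = 0.221), with library totals without TMM (0.34, adjusted p = 0.244) and in technical library 1 alone (0.45, adjusted p = 0.127). With CAT-ABP the lowest, median and highest values were 24.6, 34.9 and 40.8 CPM in CT26 and 2.39, 23.9 and 29.3 CPM in 4T1, where the lowest is the shallow replicate 4. The log2 fold change was 0.51 (SE 0.23, adjusted p = 0.0845), and without that tumor it was 0.39 and past the threshold (adjusted p = 0.0478), as it was with all tumors in DESeq2 (0.56, adjusted p = 0.0444) and in a model over all 7 groups (0.53, adjusted p = 0.0236), whereas by library totals it was 0.25 (adjusted p = 0.508).

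*G6pdx* (ENSMUSG00000031400, chrX:74409483-74429194, minus strand) encodes glucose-6-phosphate dehydrogenase, the entry enzyme of the pentose phosphate pathway. CT26 tumors with alum had 53.8, 40.4, 50.7, 39.0 and 49.4 CPM (46.6 ± 6.57) and 4T1 tumors with alum 39.2, 30.7, 39.1, 29.4 and 33.7 CPM (34.4 ± 4.59). In CT26, 4 of 5 tumors lay above the highest 4T1 tumor, and replicate 4 lay just below it. In edgeR the log2 fold change was 0.45 (SE 0.14, adjusted p = 0.0193); the call was lost without CT26 replicate 1 (0.40), without 4T1 replicate 2 (0.41) and without 4T1 replicate 4 (0.38), with the pool as a block (0.42, adjusted p = 0.125), with library totals (0.23, adjusted p = 0.342), with no filter (0.43, adjusted p = 0.0655) and in technical library 2 alone (0.14, adjusted p = 0.679). With CAT-ABP it was 0.24 (95% CI -0.04 to 0.51, adjusted p = 0.155). *G6pdx* overlaps *Ikbkg* on the other strand and shares exon positions with it (6992 counts for *G6pdx* and 19591 for *Ikbkg* over all libraries), so its counts are uncertain. Its intronless copy *G6pd2* on chromosome 5 held 24 counts.

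Scaling bears on the line differences. The log2 ratio of the TMM factors of CT26 over 4T1 was -0.23 with alum and -0.30 with CAT-ABP, which raises the values of CT26: the median log2 difference of all genes was -0.20 and -0.24 by library totals and 0.012 and 0.029 by TMM. By library totals 1716 genes were higher and 3529 lower in CT26 with alum, and 1679 higher and 4463 lower with CAT-ABP, where TMM gave 2727 and 2707, and 2840 and 3088. By library totals the members past the threshold were *Nqo1*, *Gclc*, *Srxn1* and *Blvrb* with alum, and *Nqo1*, *Txnrd1*, *Srxn1* and *Blvrb* with CAT-ABP. *Blvrb* was 2.28 and 1.75 higher on the log2 scale by library totals, and *Srxn1* 0.60 and 0.55. *Gclm*, *Slc7a11*, *G6pdx* and *Hmox1* turned to values below 0 with CAT-ABP under that scaling, and *Txnrd1* with alum (-0.20), none past the threshold.

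The order of group means is a description that depends on the scaling. By TMM *Gclc*, *Gclm*, *Srxn1*, *Slc7a11*, *G6pdx*, *Blvrb*, *Me1* and *Hmox1* had their highest and second highest means in the 2 CT26 groups, as did 33.8% of 11276 genes with a mean of at least 20 counts, and *Nqo1* had its lowest there, as did 33.2%. By library totals 5 members had their highest means in CT26 (*Gclc*, *Srxn1*, *G6pdx*, *Blvrb* and *Me1*; 21.2% of genes) and *Nqo1* its lowest (44.4%), so *Hmox1*, *Gclm* and *Slc7a11* hold this order by TMM alone; *Hmox1* and *Slc7a11* passed the threshold in neither line comparison. For *Blvrb* the order was CT26 with alum (77.7 CPM), CT26 with CAT-ABP (64.4), 4T1 with CAT-ABP (16.0), 4T1-CAT with alum (14.0), 4T1 with alum (13.5), 4T1-CAT with CAT-ABP (13.3) and 4T1-control (12.9). The ranges of mean ± SD of neighbouring groups in that order overlapped except between CT26 with CAT-ABP and 4T1 with CAT-ABP. For *Srxn1* the single gap lay between CT26 with CAT-ABP (41.1) and 4T1-CAT with CAT-ABP (25.4), and for *Me1* between CT26 with alum (33.2) and 4T1-CAT with CAT-ABP (26.3). For *Nqo1* the order fell from 4T1-CAT with alum (5.79) over 4T1 with alum (5.66), 4T1-control (5.1), 4T1-CAT with CAT-ABP (4.91), 4T1 with CAT-ABP (3.80) and CT26 with CAT-ABP (2.96) to CT26 with alum (1.85), with every pair of neighbours overlapping. *Txnrd1* was highest in 4T1 with CAT-ABP (27.4 ± 14.9) and lowest in 4T1-CAT with alum (13.5 ± 2.96). For *Txnrd1*, *Hmox1*, *Gclc*, *Gclm*, *Slc7a11* and *G6pdx* all neighbours in the order overlapped within their spread.

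EC CAT in CT26 asks what injected CAT-ABP does beside alum alone. In edgeR 0 of 10 members passed the threshold, as did 0% of 12830 genes; under an unadjusted p of 0.05 were 1 member, *Blvrb*, and 311 genes (2.42%; 789 genes without alum replicate 5 and 655 without CAT-ABP replicate 2), and DESeq2 called 1 gene, no member. Log2 fold changes of the members ran from -0.27 for *Blvrb* to 0.57 for *Nqo1*, with a median of -0.11 over the members and -0.0038 over all genes. *Blvrb* was at 71.3, 85.1, 66.9, 83.8 and 81.4 CPM with alum and at 56.4, 61.8 and 82.3 CPM (lowest, median, highest) with CAT-ABP + alum. With CAT-ABP, 5 of 6 tumors lay below the lowest alum tumor, and replicate 4, at 82.3 CPM, lay among the alum values. The log2 fold change of -0.27 had a 95% CI of -0.54 to -0.0051 and an adjusted p of 1.00. *Hmox1* was at 13.2, 24.6 and 38.5 CPM with CAT-ABP, around the 11.3 to 34.0 CPM seen with alum (log2 fold change 0.08, 95% CI -0.50 to 0.65). *Srxn1* had means of 41.1 ± 7.28 and 41.1 ± 8.24 CPM (log2 fold change 0.0051, 95% CI -0.36 to 0.37).

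EC CAT in 4T1 asks the same in the mammary line. In edgeR 0 of 10 members and 0% of 13092 genes passed the threshold; 0 members and 377 genes (2.88%; 250 genes without alum replicate 3) were under an unadjusted p of 0.05, and DESeq2 called 0 genes. The members ran from -0.52 for *Nqo1* to 0.41 for *Hmox1*, with a median of 0.04 against -0.0030 over all genes. *Hmox1* was at 19.4, 27.9, 15.5, 8.61 and 20.1 CPM with alum and at 10.5, 20.1 and 42.9 CPM (lowest, median, highest) with CAT-ABP. The values with CAT-ABP spread around those with alum, with replicates 2 and 5 above all alum tumors (log2 fold change 0.41, 95% CI -0.26 to 1.07, adjusted p = 0.999). With the pool as a block the *Hmox1* value was 0.0023, and without replicate 2 with CAT-ABP it was 0.13. *Nqo1* was at 2.39, 3.91 and 4.96 CPM with CAT-ABP and at 3.75 to 8.04 CPM with alum; 2 of 6 tumors lay below the lowest alum tumor (log2 fold change -0.52, 95% CI -1.06 to 0.02, adjusted p = 0.999). The 3 4T1 tumors with alum in the other pool pair make part of this comparison a comparison of inferred pools as well; with the pool as a block 0 genes passed and 545 were under an unadjusted p of 0.05.

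The difference of EC CAT between CT26 and 4T1 was fitted as an interaction over the 22 tumors of both lines. In edgeR 0 of 10 members and 0% of 14160 genes passed the threshold; 2 members and 509 genes (3.59%; 789 genes without CT26 alum replicate 5) were under an unadjusted p of 0.05, and DESeq2 called 0 genes. The members were *Nqo1*, with a log2 difference of 1.08 (SE 0.41, 95% CI 0.24 to 1.92, adjusted p = 1), and *Blvrb*, with -0.46 (SE 0.20, 95% CI -0.87 to -0.05, adjusted p = 1). *Nqo1* thus had a positive log2 fold change in CT26 and a negative one in 4T1, on 2 to 39 counts per tumor, and the difference failed the correction over all genes. The median was -0.15 over the members and -0.02 over all genes.

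IC CAT in 4T1 compares 4T1-CAT with 4T1-control tumors, both on DOX and alum, and asks what catalase inside the tumor cells does. In edgeR 0 of 10 members and 0% of 12534 genes passed the threshold; 0 members and 637 genes (5.08%) were under an unadjusted p of 0.05, and DESeq2 called 6 genes, no member; edgeR called 1 gene when 4T1-CAT replicate 3 was left out. Log2 fold changes ran from -0.17 for *Txnrd1* (-0.29 to 0.013 in leave-one-out fits) to 0.21 for *Gclc* (0.12 to 0.36). Of the 10, 8 were above 0, as were 6135 of the 12534 genes, with a median of 0.05 against -0.0053 over all genes. In at least 1 alternative 6 members changed sign, and 9 did so in at least 1 leave-one-out fit. *Gclc* was at 11, 11.1, 10.7, 6.2 and 12.6 CPM in 4T1-CAT and at 4.37, 8.21 and 12.2 CPM (lowest, median, highest) in 4T1-control. The ranges overlapped almost fully, and the lowest 4T1-control tumor is the shallow replicate 2, with 2 counts. *Hmox1* was at 22.7, 14.8, 9.81, 14.9 and 23.6 CPM in 4T1-CAT and at 11.4, 16.1 and 21.7 CPM in 4T1-control. Its groups overlapped too (log2 fold change 0.07, 95% CI -0.43 to 0.56, adjusted p = 1.00). Intervals of *Gclm*, *G6pdx*, *Me1* and *Srxn1* all lay between -0.45 and 0.41. In edgeR 0 markers of other cells passed the threshold in IC CAT. Log2 fold changes lay above 0 for all 7 fibroblast, 5 skeletal muscle, 9 tested macrophage, 5 tested neutrophil, 4 tested erythroid, 3 tested T cell, 6 endothelial and 2 tested adipocyte markers, with 4, 4, 2, 3, 1, 2, 0 and 1 under an unadjusted p of 0.05, and below 0 for 4 of 6 tested epithelial markers, 1 of the 6 being under 0.05. Fibroblast markers summed to 3671 ± 1241 CPM in 4T1-CAT and 2582 ± 388 CPM in 4T1-control. Replicate 5 of 4T1-CAT stood highest, at 5834 CPM (others 2753 to 3534). It also did so for the macrophage (1401), neutrophil (182), T cell (64.0), muscle (485), adipocyte (164) and endothelial (218) lists. Without it the same 8 lists had 0, 3, 1, 1, 1, 1, 0 and 1 markers under an unadjusted p of 0.05, against 3.59% of all genes, and 1 macrophage and 2 endothelial markers fell below 0. The part of these cells in the member values was not tested.

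EC CAT in 4T1-CAT asks what CAT-ABP adds to tumors of cells engineered to make catalase on DOX. In edgeR 0 of 10 members and 0% of 13093 genes passed the threshold. Under an unadjusted p of 0.05 were 1 member, *Txnrd1*, and 2000 genes (15.3%). In technical libraries 1 and 2 alone 1381 of 11392 and 254 of 10531 genes were under it. DESeq2 called 249 genes, no member, and edgeR called 1 gene when replicate 3 with CAT-ABP was left out. *Txnrd1* was at 16.8, 20.9, 13.8, 19.1 and 27.7 CPM with CAT-ABP + alum (19.7 ± 5.22) and at 13.5, 14.6, 9.81, 17.7 and 11.8 CPM with alum (13.5 ± 2.96). With CAT-ABP, 3 of 5 tumors lay above the highest alum tumor, and the groups overlapped in the other 2. The log2 fold change was 0.53 (SE 0.20, 95% CI 0.11 to 0.95, adjusted p = 0.242), and 0.26 in technical library 1 alone. The other members ran from -0.24 for *Nqo1* (-0.34 to -0.11 in leave-one-out fits) to 0.35 for *Hmox1* (0.15 to 0.52). The median was 0.10 over the members and -0.00066 over all genes. The log2 ratio of TMM factors was 0.15, which lowers the values with CAT-ABP, and the median log2 difference of all genes was 0.15 by library totals and 0.0081 by TMM. In edgeR 0 markers of other cells passed the threshold here either. Log2 fold changes lay below 0 for all 7 fibroblast, 5 skeletal muscle, 3 tested T cell, 6 endothelial and 2 tested adipocyte markers, 9 of 10 macrophage, 3 of 5 tested neutrophil and 3 of 4 tested erythroid ones, with 3, 3, 2, 0, 1, 1, 1 and 0 under an unadjusted p of 0.05, and above 0 for 5 of 6 tested epithelial markers, 0 under 0.05. Without alum replicate 5 these 8 counts were 3, 3, 1, 0, 0, 1, 1 and 0, against 17.9% of all genes, the fibroblast, muscle, T cell and adipocyte markers stayed below 0, and 6 of 10 macrophage, 4 of 6 endothelial, 3 of 4 erythroid and 2 of 5 neutrophil ones lay there. Fibroblast markers summed to 2792 ± 255 CPM with CAT-ABP and 3671 ± 1241 CPM with alum, with *Col3a1* the highest, where alum replicate 5 had 5834 CPM and the other alum tumors 2753 to 3534, and muscle markers to 190 ± 36.2 and 316 ± 114 CPM, with *Acta1* the highest. Their part in the *Txnrd1* values was not tested.

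4T1-control against 4T1 with alum covers what transduction, GFP and the DOX diet do together, and these cannot be told apart in this design. By the inferred pools, 2 of the 5 4T1 tumors with alum lay in the first pool pair and all 4T1-control tumors in the second. With the pool as a block 0 genes passed the threshold. In edgeR 0 of 10 members and 0% of 12431 genes passed the threshold; 0 members and 1307 genes (10.5%) were under an unadjusted p of 0.05, and DESeq2 called 16 genes, no member. The members ran from -0.43 for *Txnrd1* to 0.16 for *Gclm*, with a median of -0.06 against -0.01 over all genes. In edgeR 0 markers of other cells passed the threshold. All 6 tested epithelial and 5 tested neutrophil markers lay below 0, with 2 and 0 under an unadjusted p of 0.05. All 3 tested T cell and 2 tested adipocyte markers lay above 0, with 1 and 0. Of those tested, 8 of 9 macrophage, 4 of 7 fibroblast and 4 of 6 endothelial markers lay below 0, with 0, 1 and 0. So did 2 of 4 muscle and 2 of 3 erythroid ones, with 1 and 0. Their part in the member values was not tested. The log2 ratio of TMM factors was -0.12, which raises the values of 4T1-control, and the median log2 difference of all genes was -0.17 by library totals and -0.06 by TMM. *Txnrd1* was at 12.3, 14.4 and 39.3 CPM (lowest, median, highest) in 4T1-control and at 15 to 29.9 CPM in 4T1. In 4T1-control, 5 of 6 tumors lay below the lowest 4T1 tumor and the shallow replicate 2 lay above the highest, at 18 counts (log2 fold change -0.43, 95% CI -0.95 to 0.08, adjusted p = 0.585). The value ran from -0.60 to -0.23 in leave-one-out fits and was 0.079 in technical library 1 alone. Without the shallow replicate 2 of 4T1-control edgeR called 6 genes, none of them a member. Over any difference among the 5 groups of 4T1 origin, 0 members passed the threshold in edgeR against 53 of 13875 genes (0.382%), and *Txnrd1* alone was under an unadjusted p of 0.05 (adjusted p = 0.260) against 14.1% of all genes; DESeq2 called 413 genes, no member. Of the marker lists, the T cell gene *Cd3g* alone passed in edgeR over the 5 groups (adjusted p = 0.0285). Leaving out replicate 6 of 4T1-control gave 21 genes in edgeR and leaving out its replicate 2 gave 95, and with the pool as a block 0 genes passed. The comparisons share groups: 4T1 tumors with alum, for example, stand in the line comparison, in EC CAT in 4T1 and in this one, so their values are not independent.

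Of 9 genes of NRF2 itself and its regulators, 4 were higher and 1 lower in CT26 with alum, and 4 higher and 2 lower with CAT-ABP, beside 42.4% and 45.5% of all genes that differed in either direction. *Nfe2l2* had a mean of 137 ± 9.89 CPM in CT26 with alum and 118 ± 16.2 CPM with CAT-ABP, against 80.9 ± 6.25 and 85.4 ± 7.48 CPM in 4T1; the other groups of 4T1 origin lay between 83.4 and 87.9 CPM. By TMM, CT26 and 4T1 tumors did not overlap under either treatment, as for 29.9% of all genes with alum and 22.3% with CAT-ABP. In edgeR the *Nfe2l2* log2 fold change was 0.76 with alum (SE 0.12, adjusted p = 9.78e-05) and 0.44 with CAT-ABP (SE 0.13, adjusted p = 0.00913). By library totals the groups overlapped. With alum, CT26 replicate 5 had 519 of 5665117 counts and 4T1 replicate 4 had 735 of 6992462. With CAT-ABP, CT26 replicate 5 had 597 of 7009040 and 4T1 replicate 5 had 903 of 8543636. *Keap1* was at 28.3 ± 9.6 and 21.0 ± 2.89 CPM in CT26 and 4T1 with alum (log2 fold change 0.41, adjusted p = 0.130) and at 21.2 ± 3.71 and 24.0 ± 4.08 CPM with CAT-ABP (-0.23, adjusted p = 0.224). *Bach1* had log2 fold changes of 0.29 (adjusted p = 0.165) and 0.03 (adjusted p = 0.868). The NRF2 partners *Maff* (1.15 and 0.77) and *Mafk* (1.4 and 0.80) and the ligase component *Rbx1* (1.18 and 1.25) were higher in CT26 with alum and with CAT-ABP, and the ligase scaffold *Cul3* was lower (-0.76 and -0.64), while *Mafg* was lower with CAT-ABP (-0.59). Transcript levels of *Nfe2l2* and *Keap1* do not give the amount or activity of NRF2 protein, which was not analysed here. Within a line 0 of these 9 genes passed the threshold in edgeR; under an unadjusted p of 0.05 were 1 in EC CAT in CT26 (2.42% of all genes), 0 in EC CAT in 4T1 (2.88%), 1 in IC CAT (5.08%), 3 in EC CAT in 4T1-CAT (15.3%) and 2 in 4T1-control against 4T1 (10.5%).

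*Keap1* passed the threshold in 0 of the 5 edgeR tests among the groups of 4T1 origin, with 4 of them under an unadjusted p of 0.05. Of all genes, 10.5% were under it in 4T1-control against 4T1, 5.08% in IC CAT, 15.3% in EC CAT in 4T1-CAT and 14.1% over the 5 groups. These 4 tests share tumors and are not independent. Its level was 12.5 ± 5.59 CPM in 4T1-control, 19.3 ± 3.00 in 4T1-CAT with alum, 21.0 ± 2.89 in 4T1 with alum, 24.0 ± 4.08 in 4T1 with CAT-ABP and 24.0 ± 3.63 in 4T1-CAT with CAT-ABP. All 6 4T1-control tumors lay below all 4T1 tumors with alum, and the lowest, at 2.18 CPM on 1 count, is the shallow replicate 2. Values of *Keap1* without that tumor or with the pool as a block were not taken. The log2 fold change of 4T1-control against 4T1 was -0.61 (95% CI -1.05 to -0.18, adjusted p = 0.294), that of IC CAT 0.48 (95% CI 0.01 to 0.94, adjusted p = 0.967), and the test over the 5 groups missed the threshold (adjusted p = 0.0688). The mouse catalase gene *Cat* was lower in CT26 than in 4T1 (-0.71, adjusted p = 0.000537 with alum; -0.55, adjusted p = 0.0141 with CAT-ABP) and stood between -0.19 and 0.11 in the comparisons within a line, none past the threshold in edgeR.

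Another 32 NRF2 targets were listed from general knowledge. In CT26 against 4T1, 10 were higher and 6 lower of 27 tested with alum, and 12 higher and 6 lower of 26 with CAT-ABP. Over all genes 21.3% were higher and 21.1% lower with alum, and 21.8% and 23.7% with CAT-ABP, so the 6 lower genes lie near the share of all genes. Whether the share of higher or lower genes in this list differs from that of all genes was not tested. Values of the list by library totals or with the pool as a block were not taken. The largest differences were higher in CT26: *Pir*, a nuclear iron protein, stood at 32.5 ± 12.8 against 0.548 ± 0.224 CPM with alum (log2 fold change 5.75, adjusted p = 7.71e-09), and *Aldh3a1*, an aldehyde dehydrogenase, at 14.6 ± 7.19 against 0.249 ± 0.237 CPM (5.54, adjusted p = 4.66e-07). Both passed the filter on low counts through their CT26 tumors alone and failed it in every comparison among groups of 4T1 origin. The size of these 2 differences thus rests on 4T1 levels near 0. The epoxide hydrolase gene *Ephx1* (4.44 with alum and 4.07 with CAT-ABP), the glutathione transferase gene *Gstm1* (2.91 and 2.88), the exporter gene *Abcc4* (1.62 and 1.74) and *Esd* (1.58 and 1.67) were higher as well. Lower in CT26 were the NADPH source *Idh1* (-1.69 and -1.21), *Ptgr1* (-1.62 and -0.95), the glutathione transferase gene *Gsta1* (-2.52 and -2.75), the pentose phosphate gene *Tkt* (-0.85 and -0.75), the iron exporter gene *Slc40a1* (-2.27 with alum, not tested with CAT-ABP) and *Cbr1* (-1.89 and -1.39). The sixth gene lower with CAT-ABP was *Sqstm1* (-0.44, adjusted p = 0.0478; -0.24 with alum, adjusted p = 0.149), named after its values were seen. In edgeR 0 genes of this list passed the threshold in the comparisons within a line; under an unadjusted p of 0.05 were 0 of 26 in EC CAT in CT26 (2.42% of all genes), 1 of 26 in EC CAT in 4T1 (2.88%), 1 of 25 in IC CAT (5.08%), 8 of 25 in EC CAT in 4T1-CAT (15.3%) and 2 of 25 in 4T1-control against 4T1 (10.5%).

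Variation between tumors of the same group was compared among the members, as log2 CPM with each group mean removed over the 38 tumors. Of 45 pairs, 29 had a Pearson r above 0; the median was 0.117 and the range -0.633 to 0.696. After Benjamini-Hochberg adjustment over the pairs, 3 passed 0.05 by r and 3 by Spearman's rho, in permutation tests within groups. *Srxn1* and *Me1* had the highest r over the 38 tumors (0.696, permutation p = 0.00015, adjusted 0.00675; rho = 0.580, permutation p = 0.00068, adjusted 0.0306). Without the 2 tumors farthest from the median of *Srxn1* r was 0.492, and without the 2 tumors under 1000000 counts also 0.492, below *Gclc* and *Gclm* (0.546), *Gclm* and *Me1* (0.521) and *Gclm* and *Srxn1* (0.508), so its place as the highest rests on the shallow tumors. Within the pool pairs r of *Srxn1* and *Me1* was 0.798 and 0.611 (19 tumors each). Each pool pair holds 1 of the 2 shallow tumors, so all values within the pairs still include them. *Gclm* and *Me1* were next by r (0.686, rho = 0.486) and missed the threshold (adjusted 0.0900 and 0.0654), with r = 0.844 and 0.0937 within the pool pairs. *Gclc* and *Srxn1* passed by r (0.591, permutation p = 0.00129, adjusted 0.0290; rho = 0.465, permutation p = 0.00832, adjusted 0.0715), with 0.527 without the 2 farthest tumors, 0.405 without the 2 tumors under 1000000 counts, and 0.701 and 0.544 within the pool pairs. *Gclc* and *Me1* had r = 0.474 (permutation p = 0.00301, adjusted 0.0451) and rho = 0.483 (permutation p = 0.00227, adjusted 0.0387), with 0.499 without the 2 farthest, 0.344 without the shallow tumors, and 0.589 and 0.556 within the pool pairs. *Gclc* and *Gclm* passed by rho alone (adjusted 0.0387; r = 0.441, adjusted 0.0900).

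Among 11275 genes with a mean of at least 20 counts per tumor, those most like each member in the same deviations from group means are given as a description over 38 tumors that share 2 shallow ones. For *Hmox1* they were *Ero1a* (r = 0.773, and 0.770 without the shallow tumors) and *Fst* (0.718 and 0.707). *Me1* was most like *Ctu2* (0.960, falling to 0.848 without the shallow tumors) and *Tfdp1* (0.922 and 0.722), *Srxn1* like *Gpr137b* (0.821 and 0.663) and *Zbtb14* (0.813 and 0.650), and *Txnrd1* like *Cenpe* (0.851 and 0.655) and *Thrap3* (0.817 and 0.609). *Slc7a11* was most like *Ccnyl1* (0.880 and 0.611) and *Vps51* (0.879 and 0.591), *Gclc* like *Chtop* (0.790 and 0.696) and *Klhl21* (0.774 and 0.704), and *Gclm* like *Slc37a4* (0.755 and 0.5) and *F3* (0.751 and 0.523). For *Nqo1* they were *Vps16* (0.706 and 0.609) and *Nup107* (0.704 and 0.586), for *G6pdx* *Man2c1* (0.663 and 0.635) and *Ppp1r13b* (0.637 and 0.468), and for *Blvrb* *4933431E20Rik* (0.635 and 0.610) and *Il15* (0.594 and 0.534). With a prior count of 0.5 the second closest gene became *Trib3* for *Slc7a11* (0.923 and 0.677) and *Ocel1* for *Me1* (0.931 and 0.745), the closest of *Nqo1* and *Gclm* traded places with the second, and for the other members the same genes came in the same order. Values for *Hmox1* and *Blvrb* moved least when the shallow tumors were left out.

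Promoter sequence was searched for TGAC, then 3 bases of any kind, then GC, a strict form of the core of the antioxidant response element. Looser forms were not searched. The search covered both strands, in the bases just before the annotated starts in the RefSeq promoters of GRCm38.p6. Entries were found for 8 of the 10 members, with 12 promoters, and not for *Hmox1* and *Gclc*. The letters occurred in 3 of the 12 promoters (25%), those of *Gclm*, *Txnrd1* and *G6pdx*, against 3329 of all 32851 promoters (10.1%). All 249 bases of the *G6pdx* window, with its match, lie in annotated exons of *G6pdx*. The sequences below, 5′ to 3′ on the gene's strand, are shown for *Gclm* and *Txnrd1*, which hold a match, and for *Srxn1* and *Blvrb*, the members that were apart between the lines under both treatments; capitals mark the match, which lies on the reverse strand in both cases, 134 bases before the start of *Gclm* (chr3:122245423-122245431) and 92 bases before the second start of *Txnrd1* (chr10:82859114-82859122). Bases in annotated exons are left out. A match is a description of letters, and no match says only that these letters are not in the window.
*Gclm*, chr3:122245307-122245556, plus strand: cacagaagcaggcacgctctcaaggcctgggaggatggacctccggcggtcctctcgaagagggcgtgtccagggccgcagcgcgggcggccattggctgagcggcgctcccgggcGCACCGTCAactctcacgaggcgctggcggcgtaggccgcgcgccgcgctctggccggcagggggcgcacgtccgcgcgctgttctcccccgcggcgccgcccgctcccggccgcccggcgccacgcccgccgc
*Txnrd1* second promoter, chr10:82858956-82859178, plus strand: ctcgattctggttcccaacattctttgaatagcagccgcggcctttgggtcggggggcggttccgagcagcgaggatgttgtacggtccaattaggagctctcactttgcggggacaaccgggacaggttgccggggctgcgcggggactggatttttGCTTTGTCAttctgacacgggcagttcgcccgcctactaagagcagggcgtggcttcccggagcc
*Srxn1*, chr2:152105274-152105515, plus strand: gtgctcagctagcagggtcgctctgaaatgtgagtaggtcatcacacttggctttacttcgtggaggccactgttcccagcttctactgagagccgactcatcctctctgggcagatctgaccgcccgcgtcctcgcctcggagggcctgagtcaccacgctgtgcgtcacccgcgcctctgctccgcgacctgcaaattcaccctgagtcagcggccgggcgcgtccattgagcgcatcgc
*Blvrb* first promoter, chr7:27447728-27447977, plus strand: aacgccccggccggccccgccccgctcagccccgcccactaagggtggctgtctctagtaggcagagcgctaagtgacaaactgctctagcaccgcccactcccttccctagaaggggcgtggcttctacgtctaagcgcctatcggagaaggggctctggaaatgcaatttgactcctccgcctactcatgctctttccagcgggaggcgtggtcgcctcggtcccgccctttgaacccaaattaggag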

How the data were processed

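The authors deposited estimated counts per gene, made with a Smart-seq2 pipeline on Terra and not normalized; the aligner and genome build are not given in the sources used here, nor is the handling of molecular barcodes. All 76 libraries were used (columns not used: 0), from 46233 to 6958626 counts each, and 39.7% of counts above 0 carried a fraction. The 2 technical libraries of each tumor were summed and rounded. R 4.3.3 with edgeR 4.0.16 removed weakly counted genes, scaled by TMM and fitted quasi-likelihood models for each comparison; p was adjusted by Benjamini-Hochberg over all genes tested, with a threshold of 0.05. Members and marker lists were chosen with earlier results of these data known, the lists from general knowledge of the genes. Genes outside the lists are named only as the closest in likeness to a member or as overlapping one. Alternatives were DESeq2 1.42.0, RLE scaling, no filter, a model over all groups, replicate blocks and blocks of pools inferred from index tags, single technical libraries, low-depth libraries left out, and 4 chosen later. Correlations used 100000 permutations within groups. Gene positions are from GENCODE M21.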

Additional observations from a re-analysis of the deposited data

Results flagged for a closer look

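A value was set apart when it lay farther from its group than a test for a single outlying value (Dixon) allows at a p of 0.05, a rule that picks about 1 in 20 groups by chance; it did so for 10 values in 105 groups. In replicate 4 of 4T1 with CAT-ABP + alum, which holds 837403 counts, *Gclm* was low at 22.7 CPM (others 37.5 to 46), *Srxn1* low at 11.9 (23.8 to 25.6), *Me1* low at 2.39 (20.2 to 29.3) and *Txnrd1* high at 57.3 (16.1 to 24.8). *Txnrd1* was also high in the other shallow tumor, replicate 2 of 4T1-control, at 39.3 CPM (others 12.3 to 14.5). *Gclc* was low at 6.2 CPM in replicate 4 of 4T1-CAT with alum (others 10.7 to 12.6), *Srxn1* high at 28.7 in replicate 1 of 4T1 with alum (22 to 23.5), and *Blvrb* high at 82.3 in replicate 4 of CT26 with CAT-ABP + alum (56.4 to 65.2). Mouse *Cat* was low at 19.6 CPM in replicate 4 of CT26 with alum (others 23.8 to 24.3). Replicate 4 of 4T1-CAT with CAT-ABP + alum had a high total of 8709773 counts (others 4505755 to 5669599).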

How the results depend on the processing

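Each comparison was refitted with other tools, scalings, filters, blocks and single technical libraries, and leave-one-out fits dropped each tumor in turn. Of 1777 log2 fold changes of members, 1582 kept their direction and call, 28 lost the call, 6 gained it and 161 changed sign, 71 of these in the alternatives, and 380 tests over the 5 groups, which have no direction, kept their call; none of the values that changed sign passed the threshold. With a prior count of 0.5, all 70 group levels stayed within 1 SD, while the second closest gene changed for *Slc7a11* and *Me1*. Library totals without TMM, the removal of tumors under 1000000 counts, the order of group means by library totals and the marker lists without replicate 5 of 4T1-CAT with alum were chosen after seeing the data. The pool block rests on pools inferred from index tags, and could not be fitted for comparisons within a single pool pair. The cause was not tested where a value changed. Groups hold 5 or 6 tumors, some members rest on few counts in single tumors, and between CT26 and the tumors of 4T1 origin line and cell number cannot be told apart.

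Counts of genes past the threshold moved as follows. In CT26 against 4T1 with alum, technical library 2 alone gave 2849 genes and 4 members, and the pool block and library totals gave 4 members each; with CAT-ABP, technical library 2 alone gave 3559 genes. EC CAT in CT26 had 1 gene in DESeq2 and 1 with no filter on low counts, EC CAT in 4T1 16 with no filter, and the difference of EC CAT between the lines 2 with no filter. IC CAT had 6 in DESeq2 and 131 with no filter; EC CAT in 4T1-CAT had 249 in DESeq2, 47 with no filter and 3 with the replicate block. In 4T1-control against 4T1 the counts were 16 in DESeq2, 130 with no filter, 10 in a model over all 7 groups, 14 without low-depth libraries, 1 with library totals and 6 without the shallow tumors. Over the 5 groups of 4T1 origin they were 413 in DESeq2, 435 with no filter, 105 in the model over all groups, 26 with the replicate block, 2 and 11 in technical libraries 1 and 2 alone, 86 without low-depth libraries, 0 with the pool block, 221 with library totals and 143 without the shallow tumors. Leave-one-out counts ran from 4823 to 5718 genes and 5 to 7 members with alum, 5396 to 6421 genes and 3 to 4 members with CAT-ABP, 0 to 1 in IC CAT and in EC CAT in 4T1-CAT, 0 to 6 in 4T1-control against 4T1, and 21 to 95 over the 5 groups. Whether replicate numbers pair the tumors cannot be decided here, since each comparison holds only 5 or 6 same-number pairs. Correlations of same-number tumors were above 0.1 in at most 2 pairs of any comparison. They ran from -0.369 in IC CAT to 0.396 in CT26 against 4T1 with CAT-ABP. With the replicate block, more genes were under the unadjusted threshold in EC CAT in CT26 (311 to 661) and in 4T1-CAT (2000 to 2454). That count also rose in EC CAT in 4T1 and in the difference between the lines. It fell in all other comparisons, in IC CAT from 637 to 311. The replicate block is a check of that numbering alone.

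In CT26 against 4T1 with alum the sign turned with no filter *Txnrd1* -0.0038, in technical library 1 alone *Txnrd1* -0.064, with the pool block *Hmox1* -0.041 and *Txnrd1* -0.13, with library totals *Txnrd1* -0.20. Left-out tumors moved *Gclm* from 0.28 to 0.39, *Txnrd1* from -0.070 to 0.19 and *G6pdx* from 0.38 to 0.51.

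In CT26 against 4T1 with CAT-ABP the sign turned in technical library 2 alone *Hmox1* -0.15, without low-depth libraries *Hmox1* -0.0032, with library totals *Hmox1* -0.27, *Gclm* -0.019, *Slc7a11* -0.074 and *G6pdx* -0.027, without the shallow tumors *Hmox1* -0.032. Left-out tumors moved *Hmox1* from -0.15 to 0.31 and *Me1* from 0.39 to 0.64.

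In EC CAT in CT26 the sign turned in DESeq2 *Srxn1* -3.5e-05 and *Me1* -6.3e-05, with RLE scaling *Srxn1* -0.0028 and *Me1* -0.0032, in technical library 1 alone *Srxn1* -0.00024, in technical library 2 alone *Me1* -0.053, with library totals *Srxn1* -0.044 and *Me1* -0.019. Left-out tumors moved *Hmox1* from -0.11 to 0.24, *Srxn1* from -0.10 to 0.10 and *Me1* from -0.056 to 0.086.

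In EC CAT in 4T1 the sign turned with the replicate block *G6pdx* -0.087 and *Me1* -0.056, in technical library 2 alone *Gclm* 0.0032, *Srxn1* 0.40, *G6pdx* -0.21 and *Blvrb* -0.0063, with the pool block *Slc7a11* 0.54 and *Me1* -0.19, with library totals *Srxn1* 0.0040 and *Slc7a11* 0.034, without the shallow tumors *Gclm* 0.011, *Srxn1* 0.030 and *Slc7a11* 0.025. Left-out tumors moved *Gclm* from -0.10 to 0.011, *Srxn1* from -0.069 to 0.043, *Slc7a11* from -0.25 to 0.16, *G6pdx* from -0.053 to 0.076 and *Me1* from -0.039 to 0.18.

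In the difference of EC CAT between the lines the sign turned in technical library 2 alone *Srxn1* -0.38, *Slc7a11* 0.025 and *G6pdx* 0.054, with the pool block *Hmox1* 0.074 and *Me1* 0.19, with library totals *Srxn1* -0.043, without the shallow tumors *Srxn1* -0.033. Left-out tumors moved *Srxn1* from -0.073 to 0.12, *Slc7a11* from -0.31 to 0.090 and *Me1* from -0.18 to 0.034.

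In IC CAT in 4T1 the sign turned with the replicate block *Gclm* -0.0055 and *G6pdx* -0.033, in technical library 1 alone *Me1* -0.078, in technical library 2 alone *Gclm* -0.049, *Srxn1* 0.0062 and *Blvrb* -0.073, without low-depth libraries *Txnrd1* 0.045 and *Me1* -0.028, without the shallow tumors *Txnrd1* 0.013 and *Me1* -0.012. Left-out tumors moved *Nqo1* from -0.026 to 0.27, *Hmox1* from -0.067 to 0.20, *Gclm* from -0.037 to 0.082, *Txnrd1* from -0.29 to 0.013, *Srxn1* from -0.13 to 0.045, *Slc7a11* from -0.0081 to 0.33, *G6pdx* from -0.092 to 0.093, *Blvrb* from -0.015 to 0.13 and *Me1* from -0.044 to 0.13.

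In EC CAT in 4T1-CAT the sign turned in technical library 1 alone *Nqo1* 0.082, *Slc7a11* -0.036 and *G6pdx* 0.039, in technical library 2 alone *Srxn1* -0.0040, *Blvrb* 0.12 and *Me1* -0.045, with library totals *Gclm* 0.049, *G6pdx* 0.061 and *Blvrb* 0.077. Left-out tumors moved *Gclc* from -0.032 to 0.21, *G6pdx* from -0.19 to 0.026 and *Blvrb* from -0.25 to 0.027.

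In 4T1-control against 4T1 with alum the sign turned in DESeq2 *G6pdx* 0.0012, with RLE scaling *G6pdx* 0.0074, in a model over all 7 groups *G6pdx* 0.0023, with the replicate block *Nqo1* 0.094 and *G6pdx* 0.025, in technical library 1 alone *Txnrd1* 0.079, in technical library 2 alone *Gclc* 0.33, without low-depth libraries *Nqo1* 0.026, with the pool block *Hmox1* 0.17 and *G6pdx* 0.0022, with library totals *Srxn1* -0.016 and *Me1* -0.033. Left-out tumors moved *Nqo1* from -0.20 to 0.12, *Hmox1* from -0.32 to 0.091, *Gclc* from -0.17 to 0.021, *Srxn1* from -0.027 to 0.15, *G6pdx* from -0.056 to 0.054, *Blvrb* from -0.11 to 0.037 and *Me1* from -0.0086 to 0.17.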

Other observations

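ATF4 is a transcription factor of the amino acid and stress response that also acts on *Slc7a11*. A list of 8 genes from general knowledge holds *Atf4* itself beside its targets. Of these 7 were tested, and 5, *Atf4* among them, were higher and 1 lower in CT26 under both treatments. Over all genes 21.3% were higher and 21.1% lower with alum, and 21.8% and 23.7% with CAT-ABP. The list as a whole was not tested. It had a median log2 fold change of 1.36 with alum and 1.03 with CAT-ABP. *Atf4* stood at 218 ± 22.3 CPM in CT26 and 72.9 ± 6.72 CPM in 4T1 with alum (n = 5 each; log2 fold change 1.58, adjusted p = 1.63e-07), and with CAT-ABP its log2 fold change was 1.49 (adjusted p = 6.68e-08). *Asns*, which makes asparagine, stood at 277 ± 101.5 against 48.5 ± 6.21 CPM with alum (2.51, adjusted p = 3.97e-07) and was higher with CAT-ABP too (2.39, adjusted p = 6.84e-09). *Psat1* (1.36 and 1.37), *Ddit3* (1.67 and 0.77) and *Trib3* (0.88 and 1.03) were higher under both treatments, and *Atf3* was lower (-0.84 and -0.96). *Slc7a11* passed the threshold under neither treatment (0.34 and 0.20). Within a line 0 of the 7 passed in edgeR; under an unadjusted p of 0.05 were 1 in EC CAT in CT26 (2.42% of all genes), 0 in EC CAT in 4T1 (2.88%), 0 in IC CAT (5.08%), 1 in EC CAT in 4T1-CAT (15.3%) and 0 in 4T1-control against 4T1 (10.5%).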
